A study of Mus musculus with 23 samples.

Results

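Fat of 2 mouse models that carry different alleles of Bub1b was compared: 4 HL1002P libraries against 4 HH libraries, 8 of the 23 libraries of the series, chosen by their labels and not by any measured value. HH mice carried a pair of hypomorphic (H) alleles of Bub1b. HL1002P mice carried an H allele beside an allele with the L1002P missense change, so that an H allele was shared by both groups and neither group was free of Bub1b mutation. All mice were of a mixed 129Sve/C57BL/6 background and 8 to 10 months old, and the fat depot carries the abbreviation IAT, left unexpanded by the submitters. The comparison asks which transcripts differ with the kind of second allele. Wild-type (WT) fat (4 libraries), and gastrocnemius muscle of the same genotypes (4 WT, 4 HL1002P and 3 HH libraries), were used for reference. The labels do not say that each library came from a separate mouse, so the p-values measure the spread between these samples. Nor do they say which parental strain's alleles a library carried at any gene, so a genotype effect and a strain difference that happens to follow the groups cannot be told apart, also for the genes that set HH apart from both HL1002P and WT.

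Bub1b encodes BubR1, a kinase-like protein of the spindle assembly checkpoint, which holds back the separation of sister chromatids until every chromosome is attached to the spindle. The checkpoint restrains the anaphase-promoting complex, and once released this complex marks securin (Pttg1) for destruction and so frees separase to cut cohesin. Mice with little BubR1 are known for early loss of fat and for the build-up of senescent cells in fat and muscle.

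The 8 libraries held 22.6 to 54.1 M counts each, with a count for 17115 to 18065 genes. Within each mutant, replicate 4 was the library with Xist, and the other 3 libraries of each mutant carried Y-linked transcripts; of the WT fat libraries, 2 of 4 had Xist, so each comparison with WT also differs in this respect. On the first principal component of the 12 fat libraries (40.8% of the variance), HL1002P replicate 4 lay at −39.1 and the other HL1002P libraries at 52.2 to 73.8. The 10 markers of skeletal muscle fibres, all of them tested, summed to 144 to 338 CPM (counts scaled to library size) in HL1002P replicates 1 to 3 and to 5376 CPM in replicate 4. In HH they summed to 13751 CPM in replicate 1 and to 37.3 to 68.7 CPM in the others. Mammary epithelium markers summed to 1765 CPM in HL1002P replicate 4, 1305 CPM in HH replicate 2 and 843 CPM in HH replicate 4, against 21.0 to 195 CPM in the other mutant libraries. Markers of fat cells were abundant in all 8: Adipoq, the adiponectin gene, stood at 835 to 2238 CPM.

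For the 3 genes with the smallest p-values the 300 bases around a start site are shown here, because their transcripts separate the mutants most clearly (below). They run from 250 bases before to 50 bases after a start site in RefSeq (GRCm38.p6), 5′ to 3′ along the gene, with motif matches in capitals. Pttg1 lies at chr11:43425932-43426231 on the minus strand, Slfn8 at chr11:83020761-83021060 on the minus strand and Mst1 at chr9:108080186-108080485 on the plus strand.
Pttg1: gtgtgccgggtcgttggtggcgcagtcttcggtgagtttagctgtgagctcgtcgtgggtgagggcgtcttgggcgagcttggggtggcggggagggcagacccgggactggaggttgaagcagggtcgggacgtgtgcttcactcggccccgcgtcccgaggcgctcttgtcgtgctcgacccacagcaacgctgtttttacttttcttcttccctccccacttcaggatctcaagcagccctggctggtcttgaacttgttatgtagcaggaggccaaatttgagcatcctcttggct
Slfn8: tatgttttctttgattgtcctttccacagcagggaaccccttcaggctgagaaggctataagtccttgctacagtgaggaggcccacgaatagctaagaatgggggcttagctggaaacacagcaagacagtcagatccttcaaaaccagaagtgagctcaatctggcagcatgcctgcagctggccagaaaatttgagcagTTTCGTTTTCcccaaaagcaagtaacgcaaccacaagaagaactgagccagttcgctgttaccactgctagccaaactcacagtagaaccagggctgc
Mst1: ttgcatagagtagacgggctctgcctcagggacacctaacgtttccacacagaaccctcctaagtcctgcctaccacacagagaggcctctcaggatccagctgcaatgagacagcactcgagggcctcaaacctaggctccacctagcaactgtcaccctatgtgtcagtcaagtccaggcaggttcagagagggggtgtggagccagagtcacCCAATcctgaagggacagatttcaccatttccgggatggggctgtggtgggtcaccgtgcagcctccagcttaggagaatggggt
The motifs were searched on both strands: the core of the interferon-stimulated response element (GAAA, any 2 bases, GAAA), the CCAAT box (CCAAT), the GC box (GGGCGG), an E-box (CACGTG) and a glucocorticoid response element (GNACA, any 3 bases, TGTNC). The capitals in Slfn8 are a match of the interferon element on the other strand, from base 203 to base 212 of the window; 3.44% of the 32851 windows in the table held one. The capitals in Mst1 are a CCAAT box, held by 37.4% of all windows. The Pttg1 window, which lies within the RefSeq span of the gene, held none of the 5. Of 16 genes, the 8 of smallest p on either side of 0 without predicted genes, 13 had a window, of which 1 held the interferon element, 6 a CCAAT box and 5 a GC box (35.7% of all windows). An E-box was found in 1 of the 13 (7.15% of all windows) and a glucocorticoid element in 0 of them (0.475% of all windows).

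No gene passed the test between the mutants. Of 16266 genes tested, 0 (0%) had an edgeR quasi-likelihood adjusted p under 0.05, and the smallest adjusted p was 0.055. At an unadjusted p under 0.05 there were 535 genes (3.29%), fewer than the 1 in 20 that arise on average where no gene differs. Of them, 230 (1.41% of all genes tested) had higher values in HL1002P and 305 (1.88%) had lower values. In place of 535 there were 1656 without HL1002P replicate 4, 280 without HL1002P replicate 1 and 271 without HL1002P replicate 2. DESeq2 called 21 genes, limma voom 0, and the edgeR fit of the 8 libraries alone called 1, Mst1. The genes DESeq2 called included all 8 named below with higher values in HL1002P, and Acacb, Pkdcc, Myrip, Adcyap1r1 and Cyyr1. Every HL1002P library was above every HH library for 185 genes (1.14%) and below for 162 (0.996%). Genes picked by the smallest p, as below, tend to lack overlap through that choice, so their lack of overlap is no separate support. The spread between libraries was wide: the biological coefficient of variation was 0.426 and the median 95% interval of a log2 fold change reached 0.533 to either side. For 10776 genes (66.2%) the whole interval lay within 1 of 0 on the log2 scale, so a change of more than 2-fold in either direction was outside it.

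**Figure D1:**
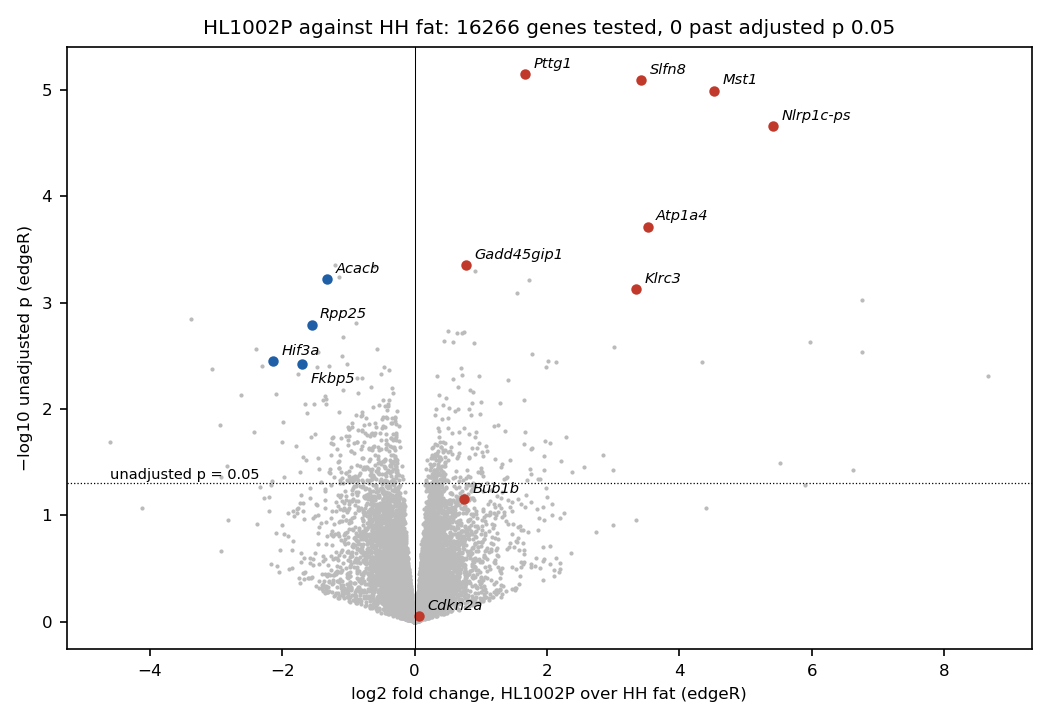
Log2 fold change of HL1002P over HH fat (horizontal axis) against the −log10 of the unadjusted edgeR p (vertical axis) for the 16266 genes tested; grey points are genes, red and blue points are named genes with higher and lower values in HL1002P. The 4 points at the top are Pttg1, Slfn8, Mst1 and Nlrp1c-ps, all to the right of 0, while Cdkn2a lies near 0.

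Each mutant gave many more calls against WT fat than against the other mutant. Against WT, 2816 genes rose (17.3%) and 2351 fell (14.5%) in HL1002P, and 1993 rose (12.3%) and 1398 fell (8.59%) in HH, by the same edgeR test in the same fit. These comparisons share their WT libraries, so their values stand side by side below for each gene and are not compared as lists.

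Bub1b itself (chr2:118598202-118641592) was at 22.0, 22.1, 18.6 and 6.12 CPM in HL1002P replicates 1 to 4, and at 5.96, 11.4, 14.3 and 9.25 CPM in HH. Replicates 1 to 3 of HL1002P lay above every HH library and replicate 4 lay among them. WT fat libraries held 7.08 to 11.6 CPM. Against WT, Bub1b did not pass in HL1002P (0.80, edgeR adjusted p = 0.118) or in HH (0.05, adjusted p = 0.932). The log2 fold change was 0.75 ± 0.38 (SE; 95% interval −0.07 to 1.58, edgeR adjusted p = 0.999), and 1.04 without HL1002P replicate 4. Bub1b was lowest of each group in HL1002P replicate 4 and HH replicate 1, as were the summed mitotic kinases, kinesins and kinetochore genes (below). These summed to 229 and 291 CPM there, against 623 to 931 CPM in the other mutant libraries. Whether the level of Bub1b follows cell division in each library was not tested. In these bulk samples fewer cells of a type and less RNA per cell cannot be told apart. Counts per gene do not show which allele a transcript came from.

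Pttg1 (chr11:43420244-43427463), the gene of securin, had the smallest p. It stood at 28.0, 26.0, 22.96 and 20.7 CPM in HL1002P and at 5.63, 8.99, 9.26 and 6.74 CPM in HH. The lowest HL1002P library was above the highest HH library, and the WT libraries, at 20.3 to 36.4 CPM, were all above every HH library too. The difference was 1.67 ± 0.22 on the log2 scale (SE; 95% interval 1.20 to 2.15, edgeR adjusted p = 0.055). Against WT, Pttg1 fell in HH, by 1.80 on the log2 scale (edgeR adjusted p = 0.00905), and did not pass in HL1002P (−0.12, adjusted p = 0.665). The adjusted p ran from 8.09e-09 (DESeq2) to 0.577 over the alternatives, and the log2 fold change stayed between 1.54 and 1.79.

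Slfn8 (chr11:83002125-83020810) is a member of the Schlafen family, a cluster of genes active in immune cells. Its levels were 32.0, 41.5, 29.6 and 19.3 CPM in HL1002P and 1.79, 4.13, 3.38 and 2.11 CPM in HH, again without overlap. WT libraries held 9.91, 8.17, 10.7 and 28.0 CPM, between the mutants in all but replicate 4. The log2 fold change between the mutants was 3.42 ± 0.45 (SE, edgeR adjusted p = 0.055), a 10.7-fold difference of the fitted levels. In HH the gene fell against WT, by 2.32 on the log2 scale (edgeR adjusted p = 0.0116), while HL1002P stood 1.11 above WT (adjusted p = 0.0589). Its neighbours on chromosome 11, chosen after the values were seen, did not show this gap. Slfn1, Slfn2, Slfn5, Slfn9 and Slfn10-ps had log2 fold changes of 0.52, 0.59, 0.10, −0.41 and 0.33, and none passed. Members of this family resemble each other, and the treatment of reads that match several places is not stated, so their counts are uncertain.

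Mst1 (chr9:108080409-108085027) encodes macrophage-stimulating protein, a secreted ligand of the receptor Ron made mostly in liver. It was scarce: 2.06, 2.59, 2.84 and 1.53 CPM in HL1002P against 0.144, 0.0797, 0.0834 and 0.0661 CPM in HH. The groups did not overlap, and WT ranged from 0.133 to 1.19 CPM, between them in all but the lowest library, which lay just under the highest HH library. The log2 fold change was 4.52 ± 0.61 (SE, edgeR adjusted p = 0.055). Mst1 rose against WT in HL1002P by 1.79 (edgeR adjusted p = 0.0262) and fell by 2.73 in HH (adjusted p = 0.0142). The gene overlaps Mir7088, and counting by strand is not stated.

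Nlrp1c-ps (chr11:71242430-71285232), a pseudogene of the inflammasome sensor family, completed the 4 genes with an adjusted p under 0.1. It had 123 counts in the 4 HL1002P libraries and 2 in the 4 HH libraries, a ratio of rates of 53.3 (95% counting interval 14.5 to 445, edgeR adjusted p = 0.0887). All 4 HL1002P libraries (0.545, 0.464, 1.16 and 0.442 CPM) and all 4 WT libraries (0.513 to 1.18 CPM) held the transcript, and HH replicate 2 alone of the HH libraries held any. It overlaps Nlrp1b by its ends, and Nlrp1b and Nlrp1a did not pass, at 0.25 and 0.29.

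**Figure D2:**
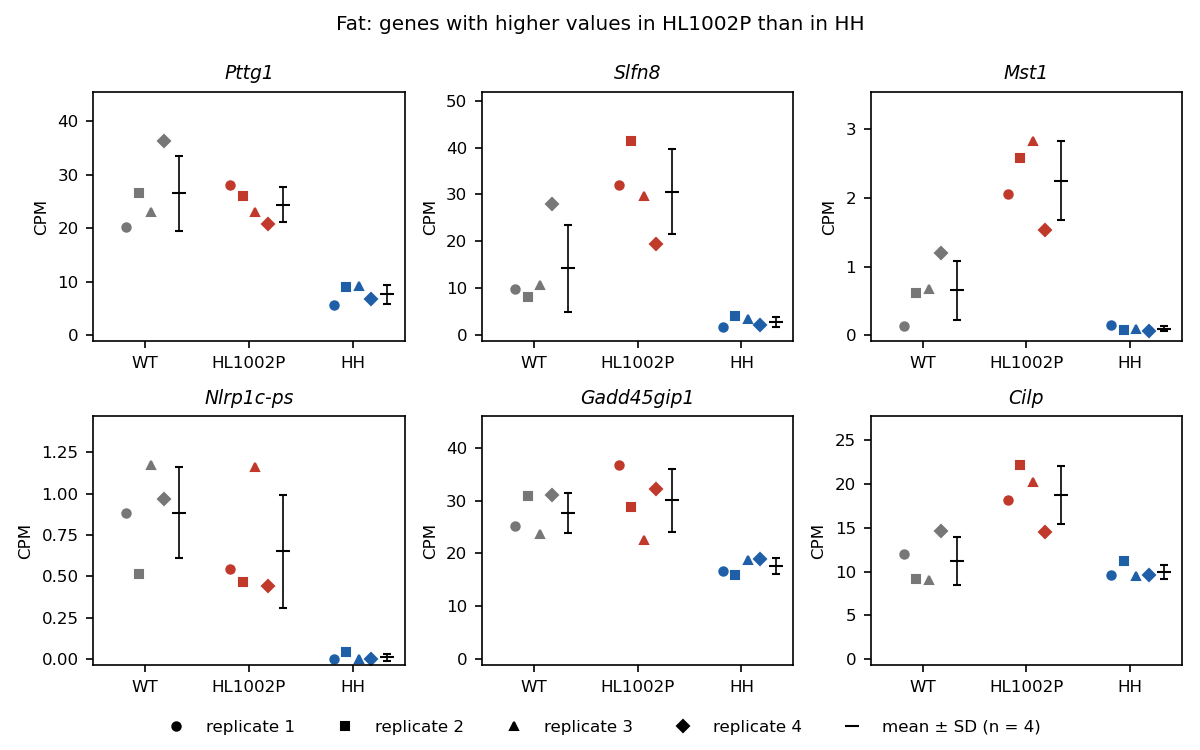
CPM (vertical axes, linear) of 6 genes with higher values in HL1002P than in HH in each fat library, by genotype, with the mean and SD of 4 libraries beside the points and a marker shape for each replicate number. Pttg1 in HH lies at 5.63 to 9.26 CPM, under all HL1002P and WT libraries, and Nlrp1c-ps is at 0 in 3 HH libraries.

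The next 4 genes with higher values in HL1002P also separated the groups, and none passed. Atp1a4, a sodium pump subunit known from sperm, was at 1.27 to 9.42 CPM in HL1002P and 0.334 to 0.618 CPM in HH (log2 fold change 3.52, edgeR adjusted p = 0.63). WT held more than either, 10.8 to 36.3 CPM. The gene overlaps Gm4816. Gadd45gip1, which encodes a protein of the mitochondrial ribosome, stood at 36.8, 28.8, 22.5 and 32.1 CPM against 16.6, 15.9, 18.8 and 19.03 CPM in HH (0.77 ± 0.16). It fell in HH against WT, by 0.66 (edgeR adjusted p = 0.0199); HL1002P differed from WT by 0.12 (adjusted p = 0.575). Cilp, a matrix protein first found in cartilage, stood at 14.5 to 22.2 CPM in HL1002P and 9.47 to 11.2 CPM in HH (0.91 ± 0.19). Cilp rose in HL1002P against WT, by 0.74 (edgeR adjusted p = 0.0171), and not in HH (−0.17, adjusted p = 0.523). Klrc3, a receptor of natural killer cells, was at 0.272 to 1.09 CPM against 0 to 0.179 CPM (3.35 ± 0.74). Of these 8 genes, Pttg1, Slfn8, Mst1, Nlrp1c-ps, Atp1a4, Gadd45gip1 and Klrc3 fell in HH against WT, and Cilp did not; Atp1a4 fell in HL1002P as well, by 1.99 (edgeR adjusted p = 0.0288). The genes named here and in the next paragraphs were chosen for the distance of HH from HL1002P. Each comparison with WT uses the same HH or HL1002P libraries again, so the choice favours a change against WT in either mutant.

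Among genes with lower values in HL1002P, none had an adjusted p under 0.839. Acacb (chr5:114146321-114250761) encodes acetyl-CoA carboxylase 2, which makes the malonyl-CoA that holds back fatty acid uptake into mitochondria. It stood at 72.4, 60.2, 146 and 81.7 CPM in HL1002P and at 321, 206, 206 and 168 CPM in HH. The groups did not overlap, and WT, at 53.1 to 79.7 CPM, lay with HL1002P. The log2 fold change was −1.32 ± 0.28 (SE, edgeR adjusted p = 0.839). In HH, Acacb rose against WT by 1.83 (edgeR adjusted p = 0.011), while in HL1002P the value of 0.51 did not pass (adjusted p = 0.169).

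Pkdcc, a secreted kinase of the matrix, was at 26.8 to 32.9 CPM in HL1002P and 42.5 to 46.9 CPM in HH (−0.61 ± 0.13). It was among the tightest of the differences, with an SD of 2.76 and 2.04 CPM, and Pkdcc rose in HH against WT by 0.83 (edgeR adjusted p = 0.0105). Myrip, a linker of Rab27a vesicles to myosin, was at 5.69 to 7.79 CPM against 8.26 to 19 CPM (−1.20 ± 0.25). Adcyap1r1, the receptor of the neuropeptide PACAP, was at 14.8 to 28.0 CPM against 38.1 to 65.0 CPM (−1.14 ± 0.24). These 3 did not overlap between the mutants. Cyyr1, a small membrane protein, was at 4.44 to 8.03 against 8.43 to 14.02 CPM (−0.89 ± 0.22) and fell in HL1002P against WT by 1.20 (edgeR adjusted p = 0.00775). Rpp25, a ribonuclease P subunit, was at 0.136 to 0.172 against 0.299 to 0.577 CPM (−1.56 ± 0.38).

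The groups overlapped for Mertk. This gene, the receptor by which macrophages take up dying cells, was at 21.6, 14.6, 25.8 and 16.8 CPM in HL1002P and 37.5, 52.4, 22.5 and 54.9 CPM in HH (−1.09 ± 0.28), with HH replicate 3 inside the HL1002P range.

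**Figure D3:**
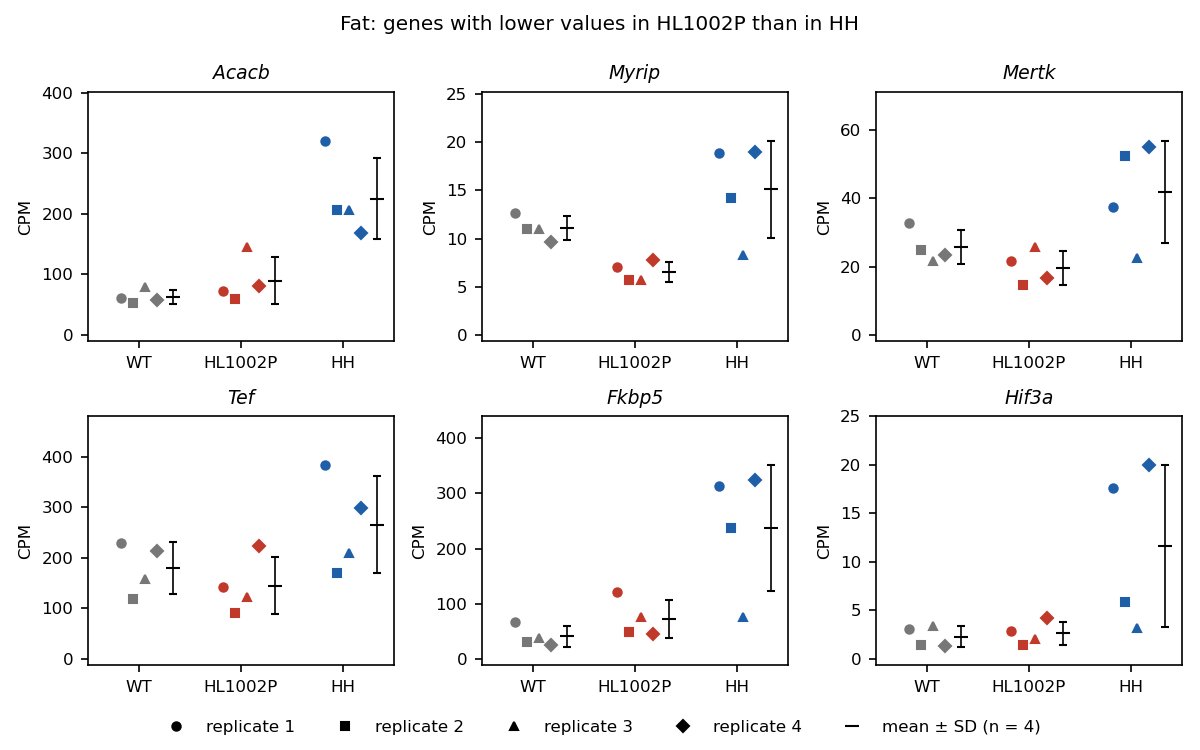
CPM (vertical axes, linear) of 6 genes with lower values in HL1002P than in HH in each fat library, by genotype, with the mean and SD of 4 libraries and a marker shape for each replicate number. Acacb in HH lies at 168 to 321 CPM, above all HL1002P and WT libraries, whereas for Mertk, and for Fkbp5 and Hif3a (chosen after their values were seen), HH replicate 3 lies inside the HL1002P range.

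The genes around BubR1 were read from lists chosen with earlier results of these data known. A median is that of the members' log2 fold changes, beside 0.00755 for all genes tested. Of those 16266 genes, 8358 had higher values in HL1002P. Members of a list can rise and fall together by library, so a count of members on the same side is not a count of independent results. No member of any of the 28 process lists passed. Of 17 spindle checkpoint genes, 13 had higher values in HL1002P (median 0.15) and 0 had an unadjusted p under 0.05. That median was 0.05 without HL1002P replicate 1 and 0.36 without HL1002P replicate 4. Of 20 genes of securin, separase and cohesin, 16 had higher values (median 0.14) and 2 reached an unadjusted p under 0.05: Pttg1, and Esco1, a cohesin acetyltransferase (0.42 ± 0.18). Of all genes tested, 1.41% had such a p with higher values. Among 19 subunits and partners of the anaphase-promoting complex, 18 had an interval within 1 of 0 (median 0.08).

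Genes of cell division leaned towards HL1002P without passing. Of 30 mitotic kinases, kinesins and kinetochore genes, 28 had higher values in HL1002P (median 0.34), and 0 had an unadjusted p under 0.05. Cdk1, the kinase that drives mitosis, was at 29.5, 29.9, 15.8 and 7.82 CPM in HL1002P and 8.87, 15.05, 16.9 and 15.3 CPM in HH (0.56 ± 0.40). Melk was at 9.29, 8.83, 7.32 and 2.28 CPM against 2.97, 4.52, 6.17 and 4.96 CPM (0.58 ± 0.42). The pattern was the same in both: HL1002P replicates 1 and 2 were highest, and HL1002P replicate 4 was the lowest mutant library. Mki67, a proliferation marker chosen after the values were seen, had 41.3 CPM there, against 61.6 to 230 CPM in the other 7. The list's median was 0.65 without HL1002P replicate 4 and 0.15 without HH replicate 1, the library lowest in HH. All 30 DNA replication genes had higher values in HL1002P (median 0.18), of which Tyms, thymidylate synthase, had an unadjusted p of 0.0409. That median was 0.39 without HL1002P replicate 4 and 0.07 without HL1002P replicate 1 or HH replicate 1. Against WT, 28 of the 30 mitotic genes rose in HL1002P (median 1.49), where 17.3% of all genes rose, and 8 in HH (median 1.13), where 12.3% did. Compared directly, none of the 30 passed between the mutants. Summed T cell markers were lowest of each group in the same 2 libraries, at 871 CPM in HL1002P replicate 4 and 835 CPM in HH replicate 1. The other 6 held 983 to 1845 CPM. Summed B cell markers were also lowest in HL1002P replicate 4, but within HH in replicate 4 (1617 CPM, against 1659 CPM in replicate 1). HL1002P replicate 4 and HH replicate 1 were the highest of their groups in fat cell markers (21293 and 29360 CPM). They were highest in muscle fibre markers too (5376 and 13751 CPM). A fit with B and T cell markers as a covariate called only Pttg1 and Mst1 between the mutants. The part of T cells, or of any other of these cell types, in the cell division values was not tested.

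No marker of senescence passed between the mutants. Cdkn2a (chr4:89274473-89294619), the gene of p16 and p19Arf, was at 6.82, 5.15, 5.64 and 3.88 CPM in HL1002P and at 2.598, 9.05, 6.55 and 2.35 CPM in HH. The HL1002P values lay inside the HH range, and the log2 fold change was 0.06 ± 0.43 (95% interval −0.88 to 1.01, edgeR adjusted p = 0.999), which leaves room for differences of up to about 2-fold. Cdkn2a rose in both mutants against WT, by 1.90 in HL1002P (edgeR adjusted p = 0.0134) and 1.84 in HH (adjusted p = 0.0205). Among 7 CDK inhibitors the median was 0.07, among 33 secreted factors of senescent cells −0.04, and among 30 p53 targets 0.07. Of these, Bbc3, a cell death gene, had an unadjusted p of 0.039 (−0.41 ± 0.18).

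Genes of fat synthesis leaned the other way. In the list of fatty acid and triglyceride synthesis, 22 of 25 members had lower values in HL1002P (median −0.49). Of the 25, 2 had an unadjusted p under 0.05, both with lower values, against 1.88% of all genes tested. An interval within 1 of 0 was found for 5 of the 25, against 66.2% of all genes. The groups did not overlap for Acacb, lower in HL1002P, and for Elovl5, a fatty acid elongase higher in HL1002P by a small step (87.3 to 91.3 CPM against 81.4 to 87.0 CPM, 0.08 ± 0.10). The 2 members with the small p were Acacb and Lpin1, a phosphatidate phosphatase, at 141, 110, 98.4 and 172 CPM in HL1002P and 360, 145, 130 and 407 CPM in HH (−0.998 ± 0.43). For Lpin1, HH replicates 1 and 4 lay above all HL1002P libraries and HH replicates 2 and 3 inside their range. Fasn, fatty acid synthase, chosen after the values were seen, showed how far HH libraries differed: 2858, 1280, 4292 and 6362 CPM, against 1124, 793, 2871 and 1459 CPM in HL1002P (−1.24 ± 0.67). Acaca, the cytosolic acetyl-CoA carboxylase, was at −0.98 ± 0.57 and Thrsp, a lipogenic regulator, at −0.90 ± 0.47, both picked in the same way. The list's median was −0.31 to −0.65 when 1 library was left out, lowest without HL1002P replicate 4. The fat cell markers themselves, 10 of 10 with lower values, had a median of −0.30, which was −0.02 without HH replicate 1 and −0.48 without HL1002P replicate 4. They summed to 11235 to 21293 CPM in HL1002P and 12982 to 29360 CPM in HH, highest in HH replicate 1. Resistin (Retn, −0.61 ± 0.33) and Cidec, a lipid droplet protein (−0.75 ± 0.46), had the smallest p among them. The part of fat cell content in the synthesis genes was not tested.

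Regulators of fat cells followed the same side. Of 20 fat cell transcription factors and adipokines, 17 had lower values in HL1002P (median −0.25). Rxra, the nuclear receptor partner of PPARγ, was at 130 to 178 CPM against 172 to 243 CPM (−0.44 ± 0.17). Mlxipl, which encodes the sugar-sensing factor ChREBP, was at 53.2, 42.8, 50.9 and 99.3 CPM against 159, 68.0, 82.1 and 115 CPM (−0.79 ± 0.31). Nampt, an enzyme of NAD recycling, was the third member with an unadjusted p under 0.05 (−0.58 ± 0.25), where 1.88% of all genes had one with lower values. This median was −0.10 without HH replicate 1. Oxidative phosphorylation genes differed little: all 28 had an interval within 1 of 0 (median −0.02), as did all 30 proteasome subunits (median 0.11), against 66.2% of all genes. Interferon-stimulated genes, read beside Slfn8, had higher values for 10 of 26 (median −0.07). The other lists, on lipid droplets, cholesterol, fatty acid oxidation, insulin, matrix, growth factors and stress, had medians from −0.18 (imprinted growth genes) to 0.07 (heat shock).

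Most clock genes had lower values in HL1002P, and none passed. Of 21, 17 did (median −0.35), 4 of them with an unadjusted p under 0.05: Tef, Rora, Cry1 and Ciart. Of all genes tested, 1.88% had such a p with lower values. Tef, a clock output factor, was at 143, 92.0, 123 and 224 CPM in HL1002P and 384, 171, 210 and 298 CPM in HH (−0.87 ± 0.32). Rora, an activator of Bmal1, was at 24.9, 22.6, 24.5 and 37.8 CPM against 63.5, 34.0, 24.9 and 53.6 CPM (−0.68 ± 0.28). The repressor Cry1 was at 11.7 to 13.4 CPM against 13.1 to 18.2 CPM (−0.35 ± 0.14), and Ciart at 2.12 to 4.76 against 3.21 to 8.76 CPM (−0.85 ± 0.38). Per2, Per3 and Dbp, named after the values were seen, were at −0.94, −0.89 and −0.79. HL1002P replicate 4 had the highest value of its group for Tef, Rora, Ciart, Per2, Per3 and Dbp, and without it the list's median was −0.69. Relative to the mean over the 12 fat libraries, the list's mean log2 CPM was −0.54 to −0.33 in HL1002P replicates 1 to 3, 0.27 in replicate 4 and −0.11 to 0.33 in HH, so that replicate 4 lay above 3 of the 4 HH libraries. The labels give no time of day at which tissue was taken.

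The last 2 lists with medians far from 0 were less even. Of 23 immediate early genes 20 had lower values in HL1002P (median −0.22), with Klf4 (−0.37 ± 0.29) and Jun (−0.29 ± 0.28) smallest in p, and Jun turned to 0.07 without HH replicate 2. The list's median ran from −0.61 to −0.03 with 1 library left out. Of 19 thermogenic genes 13 had higher values (median 0.18), which turned to −0.29 without HL1002P replicate 4. Dio2, which activates thyroid hormone, was at 0.774, 0.624, 2.85 and 6.94 CPM against 0.742 to 1.83 CPM (1.02 ± 0.71), and Tbx1, a beige fat marker, at −0.64 ± 0.46.

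**Figure D4:**
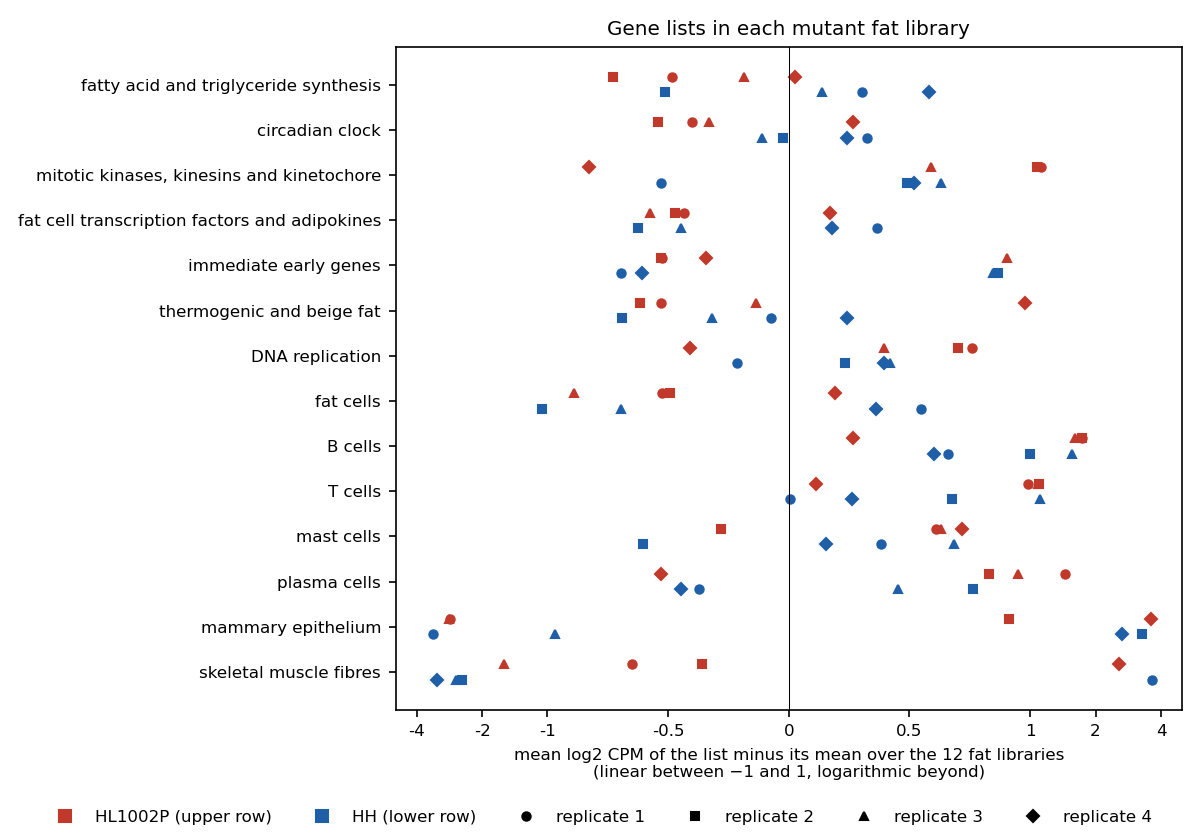
Mean log2 CPM of each gene list in each mutant fat library, relative to its mean over the 12 fat libraries (horizontal axis, linear between −1 and 1 and logarithmic beyond); red points are HL1002P, blue points HH, and marker shape gives the replicate number. The groups overlap in every list drawn, HL1002P replicate 4 (red diamond) sits apart from its group in the mitotic and B cell lists, and muscle fibre genes are high in HL1002P replicate 4 and HH replicate 1.

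No member of the 17 cell type lists, fat cells included, passed the test. Lymphocyte markers were plentiful in both mutants. The B cell list summed to 3499, 3562, 3093 and 1230 CPM in HL1002P and to 1659, 2091, 3085 and 1617 CPM in HH, against 24.3 to 622 CPM in WT. All 11 tested B cell markers had higher values in HL1002P than in HH (median 0.43, and 0.69 without HL1002P replicate 4), and none of the 11 had an interval within 1 of 0. Bank1, a B cell scaffold, was at 169, 176, 170 and 51.8 CPM against 73.5, 89.6, 122 and 75.7 CPM (0.65 ± 0.52), and Fcrla at 0.74 ± 0.68. Cd79a, a part of the B cell receptor named after the values were seen, was at 0.43 ± 0.69. Of 15 T cell markers 14 had higher values (median 0.24, and 0.07 without HH replicate 1), led by the receptor subunits Cd3g (0.83 ± 0.42) and Cd3d (0.70 ± 0.42), while Cd3e, named like Cd79a, was at 0.11 ± 0.36. The lymph node list had a median of 0.20 (0.03 without HH replicate 1 and 0.39 without HL1002P replicate 4), with Pdpn at 0.37 ± 0.20 and Madcam1, an address molecule of venules, at 0.47 ± 0.49. Its sums were 844 to 1101 CPM in HL1002P, 693 to 1029 CPM in HH and 28.3 to 348 CPM in WT. Of the 11 B cell markers, 11 rose against WT in HL1002P and 10 in HH, and of the 15 T cell markers 15 and 13, where 17.3% and 12.3% of all genes rose.

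Plasma cell markers had the highest median among the cell type lists, 0.73, with 8 of 8 higher in value in HL1002P. Fkbp11, a chaperone of secretory cells, did not overlap between the mutants (14.4, 8.06, 8.60 and 8.60 CPM against 3.90, 5.70, 6.47 and 3.93 CPM, 0.99 ± 0.33). Igj, the joining chain of antibodies, spread widely, at 2174, 1314, 1093 and 191 CPM against 217, 836, 769 and 227 CPM (1.22 ± 0.64). The plasma cell median stayed between 0.41 and 0.99 with 1 library left out. Mast cell markers had higher values for 8 of 10 (median 0.43), with Hdc, which makes histamine, at 0.54 ± 0.26 and Tpsb2 at 0.46 ± 0.32. Dendritic cell genes had a median of −0.13, with Ccr9 at 1.12 ± 0.63 and Zbtb46 at −0.18 ± 0.15.

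Macrophage markers had lower values for 16 of 19 (median −0.25, and −0.02 without HH replicate 2), led by Mertk and by C1qc, a complement subunit (−0.41 ± 0.25). Markers of lipid-associated macrophages did not lean (median 0.06), although Trem2, their defining receptor, was at 10.2, 3.74, 13.95 and 13.0 CPM against 10.7, 3.31, 3.004 and 2.94 CPM (1.03 ± 0.56), and Spp1 at 0.61 ± 0.61. Trem2 fell in both mutants against WT, by 1.87 (edgeR adjusted p = 0.0298) and 2.90 (adjusted p = 0.0128). Neutrophil genes had a median of −0.06 with S100a8 at 0.65 ± 0.84 and Elane at −0.42 ± 0.69.

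Endothelial markers had lower values for 9 of 10 (median −0.22, and −0.32 to −0.12 with 1 library left out). Flt1 and Kdr, receptors of vascular endothelial growth factor, were the members with an unadjusted p under 0.05, where 1.88% of all genes had one with lower values. Flt1 stood at 21.2, 30.3, 40.0 and 46.8 CPM against 71.0, 45.8, 40.0 and 59.0 CPM (−0.64 ± 0.25), and Kdr at 69.4 to 124 against 103 to 155 CPM (−0.46 ± 0.21). Both fell in HL1002P against WT, by 1.17 (edgeR adjusted p = 0.0103) and 0.72 (adjusted p = 0.0249), and neither passed in HH. Pericyte and smooth muscle genes had a median of −0.25 (Pdgfrb −0.31 ± 0.20, Cspg4 −0.52 ± 0.43), which was −0.58 without HL1002P replicate 4 and −0.08 without HL1002P replicate 1. Fat progenitors had one of −0.07, which turned to 0.095 without HH replicate 1, with Pdgfra at −0.38 ± 0.21 and Pi16 at −0.73 ± 0.50, where HH replicate 1 held 235 CPM and the other 7 mutant libraries 34.8 to 68.1 CPM. Nerve genes had a median of 0.06 (Ngfr 0.54 ± 0.47, Pmp22 −0.24 ± 0.23).

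Markers of muscle fibres, mammary epithelium and mesothelium were high in only some libraries of each mutant, and their source was not tested. The muscle fibre median of −1.15 was −3.37 without HL1002P replicate 4 and 4.68 without HH replicate 1, and the mammary median of 0.06 was −2.60 without HL1002P replicate 4. The 4 mesothelial markers had a median of −0.21. Of the 354 CPM that the mesothelial list summed to in HL1002P replicate 4, 351 CPM were Krt19, which is in the mammary list too. Ckm and Tnni2, proteins of muscle fibres, were at 512 and 429 CPM in HL1002P replicate 4 and at 1500 and 1130 CPM in HH replicate 1, with 1.69 to 37.1 CPM in the other 6. Csn3 and Csn2, milk protein genes, and Krt19, a keratin of glands and mesothelium, varied without regard to group: Krt19 was at 0.602, 32.8, 1.94 and 351 CPM in HL1002P and 1.13, 247, 5.42 and 185 CPM in HH. Csn3 was at 0 in HL1002P replicate 1 and at 74.7 CPM in replicate 4, and Csn2 at 0.204 to 7.71 CPM in the mutants. Lrrn4, a mesothelial gene, was at −0.23 ± 0.42. Leaving out HL1002P replicate 4 and HH replicate 1 together, an alternative chosen after the data were seen, gave 0 genes past the test.

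The same mutants were compared in muscle to see where a difference was shared. There 3 of 14580 genes passed (0.0206%), all with higher values in HL1002P: Pttg1, Pdzd3 and Gm5860. Pttg1 was at 33.9, 28.8, 27.7 and 30.5 CPM in HL1002P muscle and at 1.19, 1.35 and 1.82 CPM in HH muscle, with WT at 27.4 to 40.7 CPM. The log2 difference there was 4.37 ± 0.20 (SE, edgeR adjusted p = 4.86e-07). In both tissues HL1002P lay with WT and HH far below. The difference in fat minus that in muscle was −2.71 ± 0.30 on the log2 scale, and this was the 1 gene of 12229 (0.00818%) at which the tissues differed by the edgeR interaction test (adjusted p = 2.64e-04). Pttg1 in HH was lower in muscle than in fat (5.63 to 9.26 CPM), while HL1002P stood at 27.7 to 33.9 CPM in muscle and 20.7 to 28.0 CPM in fat.

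Pdzd3, a scaffold protein of epithelia, and Gm5860, a predicted gene, passed in muscle and not in fat. Pdzd3 was at 1.45 to 1.96 CPM against 0.0217 to 0.0466 CPM in muscle (5.49 ± 0.35), but at 0.272 to 0.428 against 0.124 to 0.501 CPM in fat (0.38 ± 0.88). Gm5860 was at 5.20 ± 0.51 in muscle and 0.75 ± 0.51 in fat (95% interval −0.36 to 1.86), on the same side. Both were too scarce in fat for the test of the difference between tissues, and in the same test without that filter (18609 genes) Pttg1 was again the 1 gene that passed, so neither is shown to differ between fat and muscle.

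Bub1b, scarce in muscle, did not show there the higher HL1002P values seen in 3 fat libraries: it was at 0.181 to 0.273 CPM in HL1002P and at 0.326 to 0.520 CPM in HH, with WT at 0.726 to 0.952 CPM. Every HL1002P library was below every HH library, with a log2 difference of −0.89 ± 0.35 (edgeR adjusted p = 0.988).

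Other genes with small p in fat varied in muscle. Slfn8 was near absent from muscle, at 0.288 to 0.927 CPM in HL1002P and 0 to 0.13 CPM in HH (3.14 ± 0.82, edgeR adjusted p = 0.651). Gadd45gip1 was at 28.0 to 47.5 against 14.2 to 19.02 CPM (1.09 ± 0.20, adjusted p = 0.196), again without overlap. Mst1 and Nlrp1c-ps were at 0 to 0.0576 CPM in every muscle library of both mutants and could not be tested. For Acacb the muscle value was −0.14 ± 0.13, for Pkdcc 0.02 ± 0.31 and for Adcyap1r1 0.05 ± 0.28. By the interaction test, signed as fat minus muscle, the next smallest p-values with a positive sign belonged to Atp1a4 (3.42 ± 0.80), Gpkow (0.46 ± 0.13), Chst11 (0.92 ± 0.26), Snapc3 (0.93 ± 0.26) and Cilp (1.62 ± 0.46). Those with a negative sign, after Pttg1, were Lrrcc1 (−1.22 ± 0.24), Vmn1r58 (−2.01 ± 0.42), Tmem201 (−0.49 ± 0.12) and Mpi (−0.53 ± 0.13); none of these 9 passed in edgeR. Cilp had opposite signs in the tissues, 0.91 in fat and −0.72 in muscle.

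**Figure D5:**
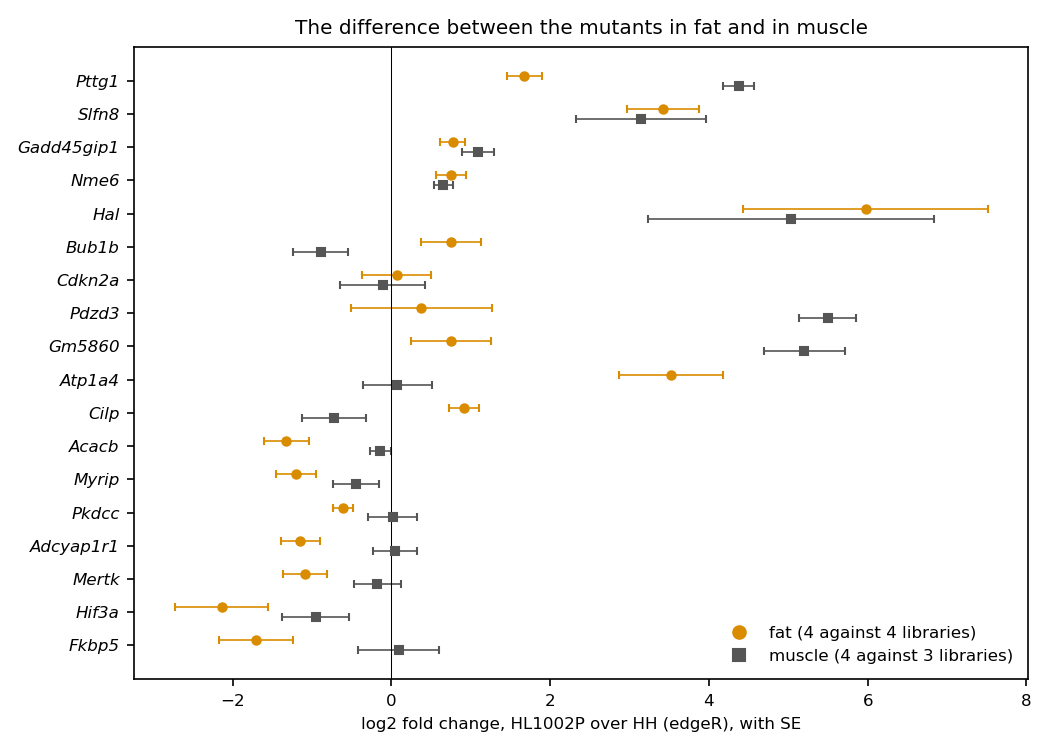
Log2 fold change of HL1002P over HH with its SE (horizontal axis) in fat (orange circles) and muscle (grey squares) for named genes measured in both tissues. Pttg1 stands at 1.67 in fat and 4.37 in muscle, Slfn8, Gadd45gip1, Nme6 and Hal (the last 2 chosen after their values were seen) lie on the same side in both, and Pdzd3 and Gm5860 stand at 5.49 and 5.20 in muscle and at 0.38 and 0.75 in fat.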

How the data were processed

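RNA of 23 libraries was sequenced with a TruSeq kit, per the labels' protocols, and the authors deposited raw read counts for 24062 gene symbols in 1 table. The submitters' processing notes name TopHat2 2.0.14, Bowtie2 2.2.6, Subread's featureCounts 1.4.6 and the mm10 genome. The gene annotation, strand setting and treatment of reads with several matches are not given in the sources used here. Positions came from RefSeq GRCm38.p6 (23902 symbols matched).

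Counts of all 12 fat libraries were fitted in R 4.3.3 with edgeR 4.0.16 (TMM, filterByExpr by group, 1 coefficient per genotype, quasi-likelihood F test, Benjamini-Hochberg adjustment over all genes tested, threshold 0.05). An interaction of tissue and genotype was fitted on all 23 libraries, over genes with at least 1 CPM on average in each tissue. Levels are CPM on TMM-scaled totals; errors are SE for fold changes and SD for levels. Intervals from counts cover counting error only. The fits were tested on simulated data. DESeq2 1.42.0, limma 3.58.1 voom and other filters, samples and covariates served as alternatives.

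The members and gene lists were chosen with earlier results of these data known. Always named were Bub1b, Cdkn2a, Pttg1, Pdzd3 and Gm5860. As no gene passed, the 8 smallest p in each direction were named, with predicted genes passed over; 1 of them is not reported here. Further named were the 2 members with the smallest p and at least 1 CPM of the 6 process lists with medians farthest from 0 and of all 17 cell type lists, and the 5 smallest interaction p in each direction. Genes outside this rule were picked with their values in view and are marked so.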

Additional observations from a re-analysis of the deposited data

Results flagged for a closer look

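Each mutant's 4 fat libraries were screened for single values far from the other 3, for 202 pairs of a named gene and a group, and 18 stood out. A chance rate of about 1 in 20 holds only for independent, normally distributed values of genes picked without sight of them. Here Hal, Per1 and Klf9 were picked with their values in view, and Ckm and Tnni2 stood out in the same libraries. No comparison with chance is therefore drawn from the 18. 8 of them were in HL1002P replicate 4, the library with Xist in that group. There Ckm stood at 512 CPM (nearest library 27.5), Tnni2 at 429 CPM (37.1), Krt19 at 351 CPM (32.8) and Csn3 at 74.7 CPM (10.2). In the same library the clock and hormone-responsive genes Per1 (156 CPM, nearest 70.9), Klf9 (79.3, nearest 35.3) and Rora (37.8, nearest 24.9) were high, and the B cell gene Bank1 was low (51.8 CPM, nearest 169). HH replicate 1 stood out for Ckm at 1500 CPM (nearest 5.68), Tnni2 at 1130 CPM (8.19), the progenitor marker Pi16 at 235 CPM (65.1) and Trem2 at 10.7 CPM (3.31).

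HL1002P replicate 3 stood out for Nlrp1c-ps at 1.16 CPM (nearest 0.545) and Gm5860 at 0.393 CPM (nearest 0.204), and HL1002P replicate 1 for Fkbp11 at 14.4 CPM (nearest 8.60) and Hal at 0.0573 CPM (nearest 30.5). HH replicate 2 stood out for Cilp at 11.2 CPM (nearest 9.62) and Nlrp1c-ps at 0.0399 CPM, where the other HH libraries were at 0.

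The difference of HL1002P against HH in Pttg1 was unlike in fat and muscle, by −2.71 on the log2 scale (edgeR interaction test, adjusted p = 2.64e-04). Its sign was the same in both tissues and every HL1002P library exceeded every HH library in each. The value stayed between −2.90 and −2.57 when any 1 of the 15 mutant libraries was left out.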

How the results depend on the processing

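The 0 genes past edgeR's test between the mutants became 21 with DESeq2, 1 in the fit of the 8 compared libraries alone and 2 (Pttg1 and Mst1) with the lymphocyte markers as a covariate. It remained 0 in each fit with 1 of the 8 libraries left out (range 0 to 0), without TMM factors, with both other filters, with limma voom, with a sex covariate and among libraries with Y-linked transcripts. Genes at an unadjusted p under 0.05 were 535, but 1656 without HL1002P replicate 4 and 271 without HL1002P replicate 2. Same-numbered HL1002P and HH fat libraries were not shown to be paired: their deviations correlated at r = 0.0352, 0.133, 0.527 and 0.41 across genes, and HL1002P replicates 2, 3 and 4 matched the same-numbered HH library best, while replicate 1 matched HH replicate 3. With a replicate block the edgeR count between the mutants was 0 (495 unadjusted), and the interaction kept a count of 1. DESeq2 called 4 genes by the interaction (1 to 1 with a library left out in edgeR), 37 between the mutants in muscle (edgeR 3) and 5151 in HH against WT fat (edgeR 3391).

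Over the alternative fits, 94 genes gave 1777 values. Of these, 1715 kept the sign and again did not pass, 19 newly passed and 43 turned sign, in 16 genes. As no gene passed in the main fit, an unchanged call only means that the gene failed again. Cd79a and Cd3e are among the lymphocyte markers averaged into the lymphocyte covariate, so their values near 0 in that fit follow by construction. With lymphocyte markers as a covariate the values turned to −0.034 for Cdkn2a, −0.32 for Csn2, 0.016 for Adipoq, −0.082 for Cd79a and −0.085 for Cd3e. With limma voom they turned to 0.010 for Elane, −0.82 for Csn3, 1.09 for Ckm and 0.78 for Tnni2, and with a replicate block to 1.91 for Ckm and 1.73 for Tnni2. Among libraries with Y-linked transcripts they turned to −0.064 for Cdkn2a and −1.43 for Csn3, and with a sex covariate to −1.23 for Csn3. Without the library richest in muscle fibre RNA of each mutant they turned for Cdkn2a (−0.029), Dio2 (−0.16), Pi16 (0.19), Csn3 (−2.06), Lrrn4 (0.021), Ckm (2.61) and Tnni2 (2.11). With 1 library left out the ranges crossed 0 for Cdkn2a (−0.19 to 0.51), Jun (−0.47 to 0.074), Pi16 (−0.98 to 0.15), Spp1 (−0.18 to 1.04), S100a8 (−0.19 to 1.04), Elane (−0.77 to 0.14), Csn3 (−1.64 to 1.93), Lrrn4 (−0.45 to 0.0084), Krt19 (−3.21 to 0.61), Ckm (−3.99 to 5.26), Tnni2 (−3.38 to 4.34), Adipoq (−0.34 to 0.17) and Cd3e (−0.065 to 0.35). Causes were not tested.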

Other observations

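Some genes outside the lists, or picked from them after their values were seen, had lower values in HL1002P through only some of the HH libraries, and none passed. Fkbp5, a co-chaperone of steroid receptors, stood at 121, 49.3, 76.0 and 45.5 CPM in HL1002P and at 314, 237, 75.8 and 323 CPM in HH (log2 fold change −1.70 ± 0.47, SE, edgeR adjusted p = 0.999). Hif3a, a hypoxia-inducible factor, was at 2.90, 1.498, 2.03 and 4.18 CPM against 17.6, 5.90, 3.17 and 19.96 CPM (−2.14 ± 0.59). Zbtb16, a zinc finger factor, was at 19.6 to 36.1 CPM against 94.7, 58.3, 15.98 and 137 CPM (−1.52 ± 0.48), and the metallothioneins Mt1 and Mt2 were at −0.87 ± 0.32 and −1.05 ± 0.50. For Fkbp5, Hif3a and Zbtb16, 3 of the 4 HH libraries lay above all HL1002P libraries. For Mt2 only HH replicates 1 and 4 did (164 and 174 CPM), and for Mt1 HH replicate 2 was level with the highest HL1002P library. HH replicate 3 was the lowest HH library for each of these 5. Fkbp5 rose in HH against WT by 2.53 (edgeR adjusted p = 0.0121) and Hif3a by 2.32 (adjusted p = 0.0231); in HL1002P the values were 0.83 and 0.19 and did not pass. Tsc22d3, Per1 and Klf9 differed less, at −0.20 ± 0.21, −0.31 ± 0.33 and −0.65 ± 0.39, and Nr3c1, the glucocorticoid receptor, was at 0.12 ± 0.15.

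Hal, which encodes histidine ammonia-lyase, was high or near 0 by library: 0.0573, 30.5, 34.5 and 30.7 CPM in HL1002P, 0 to 0.668 CPM in all 4 HH libraries, and 62.4, 54.9, 34.5 and 1.34 CPM in WT fat. In muscle it was at 0.0576, 4.13, 5.51 and 0.0727 CPM in HL1002P and 0.0398 to 0.13 CPM in HH.

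Genes that separated the mutants were unevenly spread over chromosomes, a description with no test. Chromosome 9 held 923 of the genes tested, of which 36 (3.90%) did not overlap between the groups and 16 (1.73%) had an unadjusted p under 0.01, against 2.13% and 0.553% of all genes tested. Mst1, Cilp, Myrip and Rpp25 lie there, as does Nme6, a nucleoside diphosphate kinase at 6.71 to 9.68 CPM in HL1002P and 4.01 to 5.46 CPM in HH fat (0.75 ± 0.19). In muscle Nme6 was at 18.2 to 21.4 against 11.2 to 13.4 CPM (0.66 ± 0.12), and WT lay with or above HL1002P in muscle. Chromosome 12 came close, with 3.59% of 557 genes not overlapping. On chromosome 11, which holds Pttg1, Nlrp1c-ps and Slfn8, 2.44% of 1352 genes did not overlap, and on chromosome 2, which holds Bub1b, 1.05% of 1241.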
